A study of Mus musculus with 8 samples.

Results

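The Hox genes of the mouse pancreas bud were described as a positional code. Members were all rows of the expression table whose symbol is Hox, a cluster letter from a to d and a number, which left out antisense and host transcripts. This gave 39 genes among 24341, with 11 in HoxA on chromosome 6, 10 in HoxB (GRCm38, chr11:96194316-96368256), 9 in HoxC (chr15:102921103-103036852) and 9 in HoxD (chr2:74668310-74765142). Total RNA from 8 single pancreas buds at E11.0 (about 40 somites) was sequenced after mesenchyme had been pulled off with forceps. The paper names CD1 mice for WT analyses, and says that mutant pancreata were compared with WT or heterozygous littermates. It does not state the strain of each sequenced bud. The 5 WT buds were compared with 3 Lats1/2-null buds of the genotype Pdx1Creearly;Lats1f/f;Lats2f/f. In these buds Cre recombinase under the Pdx1 promoter removes floxed alleles of the Hippo kinase genes Lats1 and Lats2 from pancreatic progenitors, and the other cells of the bud keep them. Values are FPKM, a fragment count scaled to the length of the transcript and to sequencing depth, so levels of different genes are compared per length.

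Hox genes encode homeodomain transcription factors that give cells an address along the head-to-tail axis. They sit in clusters whose order on the chromosome matches their order of use: genes at the 3′ end, with low paralog numbers, are switched on early and reach far anteriorly, while genes at the 5′ end, with high numbers, are used late and posteriorly. Genes with the same number in different clusters are paralogs, descended from 1 ancestral gene. In the gut, Hox genes are best known from the mesenchyme around the endoderm tube, where their nested domains mark regions from pharynx to hindgut. The pancreas buds form from the posterior foregut.

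Hox expression stopped abruptly between paralog groups 8 and 9. Of 23 members in groups 1 to 8, 18 were at 1 FPKM or more in all 5 WT buds, and 17 of them also in all 3 Lats1/2-null buds. Of 16 members in groups 9 to 13, none was. The highest value of any of these 16 genes in any bud was 1.06 FPKM, for Hoxb9, and the other 15 stayed at or below 0.522 FPKM. Paralog groups 1 to 4 held 49.0% ± 2.63 and groups 5 to 8 held 50.6% ± 2.66 of the summed Hox FPKM in WT buds, against 0.391% ± 0.121 for groups 9 to 13 (SD, n = 5).

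**Figure D1:**
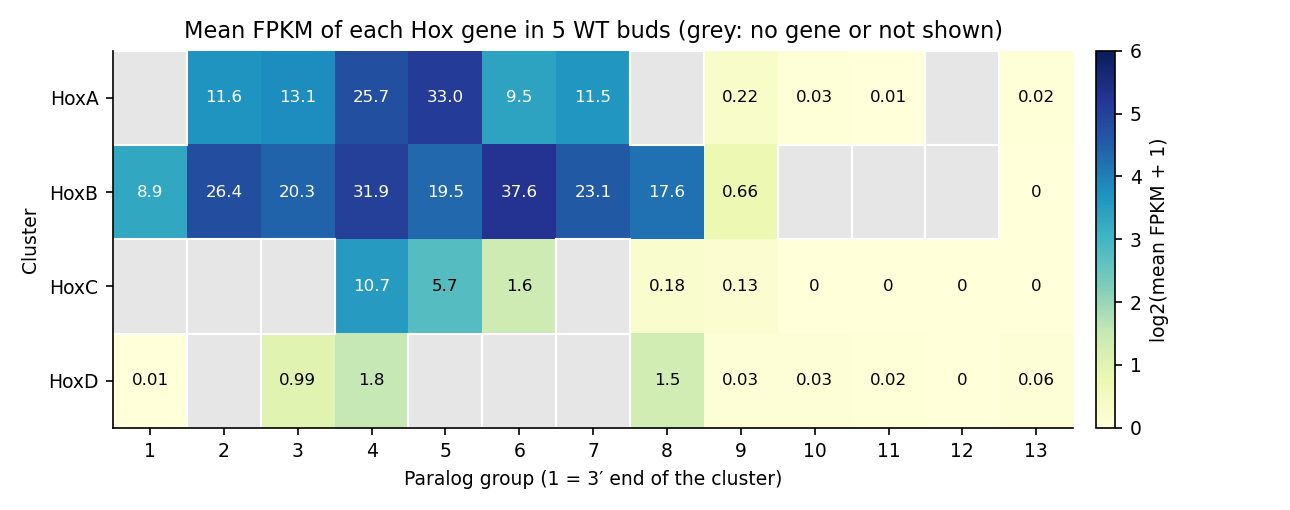
Mean FPKM of 38 Hox genes over 5 WT buds, by cluster (rows) and paralog group (columns); colour is log2(mean FPKM + 1) and grey marks combinations with no gene or not shown. The genes at the left, up to group 8, reach 37.6 FPKM (Hoxb6), while the highest mean in groups 9 to 13 is 0.661 FPKM (Hoxb9).

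In HoxA and HoxB neighbouring genes lie on opposite sides of that boundary, 9235 (Hoxa7 and Hoxa9) and 10448 bases (Hoxb8 and Hoxb9) apart from start to start in GENCODE M21. Bases upstream of the start of Hoxa7, the last expressed HoxA gene, and of Hoxa9, the first beyond the boundary, are shown with those of Hoxb8, the last expressed HoxB gene, and of Hoxb4, the member with the highest level in 2 of the 5 WT buds. The sequences are RefSeq's for GRCm38.p6 and cover the 250 bases before the annotated start: chr6:52218574-52218823 (minus strand) for Hoxa7, chr6:52227371-52227620 (minus strand) for Hoxa9, chr11:96318017-96318266 (plus strand) for Hoxb4 and chr11:96281655-96281904 (plus strand) for Hoxb8. Capitals mark matches, on either strand, to 6 short motifs: TGACAG of the Hox cofactors MEIS, TGATNNAT of PBX-HOX pairs, the nuclear receptor half-site AGGTCA to which retinoic acid receptors can bind, GGAATG of the TEAD factors through which YAP acts, the TATA box TATAAA and the CCAAT box.
Hoxa7: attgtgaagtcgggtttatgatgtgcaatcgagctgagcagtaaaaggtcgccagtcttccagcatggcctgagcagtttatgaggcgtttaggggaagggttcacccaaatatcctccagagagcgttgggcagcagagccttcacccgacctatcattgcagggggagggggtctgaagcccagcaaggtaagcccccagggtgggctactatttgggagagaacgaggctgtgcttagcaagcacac
Hoxa9: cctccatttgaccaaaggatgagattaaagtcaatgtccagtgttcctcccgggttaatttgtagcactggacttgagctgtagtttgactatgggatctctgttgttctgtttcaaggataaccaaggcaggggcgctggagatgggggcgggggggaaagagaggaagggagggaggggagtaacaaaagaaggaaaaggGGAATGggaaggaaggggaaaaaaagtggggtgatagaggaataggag
Hoxb8: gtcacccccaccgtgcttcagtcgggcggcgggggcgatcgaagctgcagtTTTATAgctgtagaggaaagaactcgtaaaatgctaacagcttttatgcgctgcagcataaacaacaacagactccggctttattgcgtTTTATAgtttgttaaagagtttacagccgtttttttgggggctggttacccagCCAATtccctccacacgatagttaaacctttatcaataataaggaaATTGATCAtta
Hoxb4: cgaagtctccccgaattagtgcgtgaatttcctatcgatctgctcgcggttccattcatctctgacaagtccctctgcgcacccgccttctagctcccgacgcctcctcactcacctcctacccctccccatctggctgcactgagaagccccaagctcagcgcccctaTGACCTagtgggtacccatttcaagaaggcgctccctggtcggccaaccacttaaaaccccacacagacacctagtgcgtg

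The Hoxa7 window held no match, the Hoxa9 window held 1 GGAATG that starts 48 bases before the annotated start, and the Hoxb4 window held 1 AGGTCA on the minus strand. Hoxb8 had 4 matches: 2 TATAAA, 1 CCAAT and 1 TGATNNAT. Of 39 members, 22 had an entry in the promoter table, with 24 promoters between them. CCAAT was found in 14 of these 24 (58.3%), against 33.8% of all 32851 promoters of the same length, and AGGTCA in 6 (25.0%) against 14.02%. TATAAA was in 4 (16.7%) against 12.4%, TGATNNAT in 4 (16.7%) against 7.68%, TGACAG in 2 (8.33%) against 15.9%, and GGAATG in 1 (4.17%) against 12.6%. These are letter matches and say nothing of binding in the bud.

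HoxB carried most of the code. Its 10 genes made up 58.8% ± 1.42 of the summed Hox FPKM in WT buds, HoxA 34.0% ± 2.01, HoxC 5.84% ± 0.699 and HoxD 1.38% ± 0.438 (SD, n = 5). The order HoxB, HoxA, HoxC, HoxD held in each of the 8 buds. The summed level was 282, 256, 394, 282 and 365 FPKM in WT buds 1 to 5, so that WT 3 and WT 5 stood above the other 3. A mean paralog number, weighted by FPKM, condenses the position along the clusters to 1 value per bud. It lay between 4.55 and 4.69 in WT buds (mean 4.62 ± 0.0582, SD, n = 5). A change shared by all members in proportion leaves this number as it is.

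Within HoxB, every gene from Hoxb2 to Hoxb8 was at 13.8 FPKM or more in every WT bud. Hoxb6 had the highest mean of all members, with 29.1, 26.4, 50.05, 29.3 and 53.2 FPKM. Hoxb4, which in the neural tube reaches up to the posterior hindbrain, was at 31.2, 31.8, 35.2, 24.9 and 36.3 FPKM. Hoxb2 was at 25.1, 22.8, 35.6, 24.9 and 23.6 FPKM. Levels did not fall steadily along the cluster: Hoxb4 was above Hoxb3 and above Hoxb5 in each WT bud, and Hoxb6 was above Hoxb5 in each. Hoxb1, the 3′-most gene, was below Hoxb2 in each WT bud, at 8.87 ± 4.65 FPKM (SD, n = 5). Ordered by WT mean, the HoxB genes ran Hoxb6, Hoxb4, Hoxb2, Hoxb7, Hoxb3, Hoxb5, Hoxb8, Hoxb1, Hoxb9 and Hoxb13, and the ranges of the buds overlapped between each pair of neighbours from Hoxb6 down to Hoxb1.

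The edge of HoxB was at Hoxb8, whose 15.1, 13.8, 22.9, 15.98 and 20.2 FPKM compare with 0.753, 0.580, 1.06, 0.623 and 0.290 FPKM for Hoxb9. The ratio of Hoxb8 to Hoxb9 was between 20.1 and 25.7 in 4 WT buds and 69.7 in WT 5. Hoxb13, a gene of the tail end of the embryo, was listed at 0 in all 8 buds.

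In HoxA the mean level climbed from Hoxa2 to Hoxa5 and was lower at Hoxa6 and Hoxa7. Hoxa5, needed for lung and gut mesenchyme patterning, was at 28.5, 27.5, 39.3, 30.6 and 39.2 FPKM. Hoxa4 was at 22.7, 23.5, 28.6, 28.0 and 25.7 FPKM, and was below Hoxa5 in each WT bud. Hoxa3, a gene of the pharyngeal arches and thymus, was at 12.6, 10.3, 15.1, 11.5 and 15.8 FPKM. Hoxa2, which patterns the second pharyngeal arch, was at 11.6 ± 1.30 FPKM (SD, n = 5). Hoxa6 was below Hoxa5 in each WT bud, with a mean of 9.54 ± 4.22 FPKM. Hoxa7 was at 10.3, 6.58, 17.3, 12.8 and 10.6 FPKM against 0.231, 0.0679, 0.206, 0.353 and 0.254 FPKM for Hoxa9, so that the smallest ratio across this edge in a WT bud was 36.1. Hoxa3, Hoxa4, Hoxa5 and Hoxa6 share 1 locus entry in the table, as do Hoxb5 and Hoxb6, and Hoxd3 and Hoxd4. In GENCODE M21, Hoxa3 spans Hoxa4, Hoxa5 and Hoxa6, Hoxc5 spans Hoxc6, Hoxc8 and Hoxc9, and Hoxd3 overlaps Hoxd4. Such overlap limits how exactly fragments can be divided among these genes. Hoxb5 and Hoxb6 lie apart in GENCODE M21, and how fragments of their shared entry were divided could not be checked.

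HoxC and HoxD were lower and ended in different ways. HoxC has no genes in groups 1 to 3, and its level declined from the first gene it has. Hoxc4 was at 9.71, 11.2, 12.5, 7.39 and 12.5 FPKM, Hoxc5 at 7.07, 3.75, 7.82, 5.64 and 4.39 FPKM, and Hoxc6 at 2.14, 0.891, 1.46, 0.908 and 2.49 FPKM. Each was below the one before it in all 5 WT buds, and Hoxc8, with 0, 0.178, 0.135, 0.421 and 0.167 FPKM, was below Hoxc6 in all 5, so that HoxC faded between groups 6 and 8. In HoxD, Hoxd8 was the only gene at 1 FPKM or more in all WT buds, with 1.42, 1.30, 1.57, 1.22 and 1.76 FPKM, against 0 to 0.0633 FPKM for Hoxd9. Hoxd4 was at 0.797, 1.39, 2.197, 0.853 and 3.99 FPKM and Hoxd3 at 0.697, 0.860, 1.23, 0.441 and 1.70 FPKM, while Hoxd1 was above 0 in 1 WT bud, at 0.0584 FPKM.

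**Figure D2:**
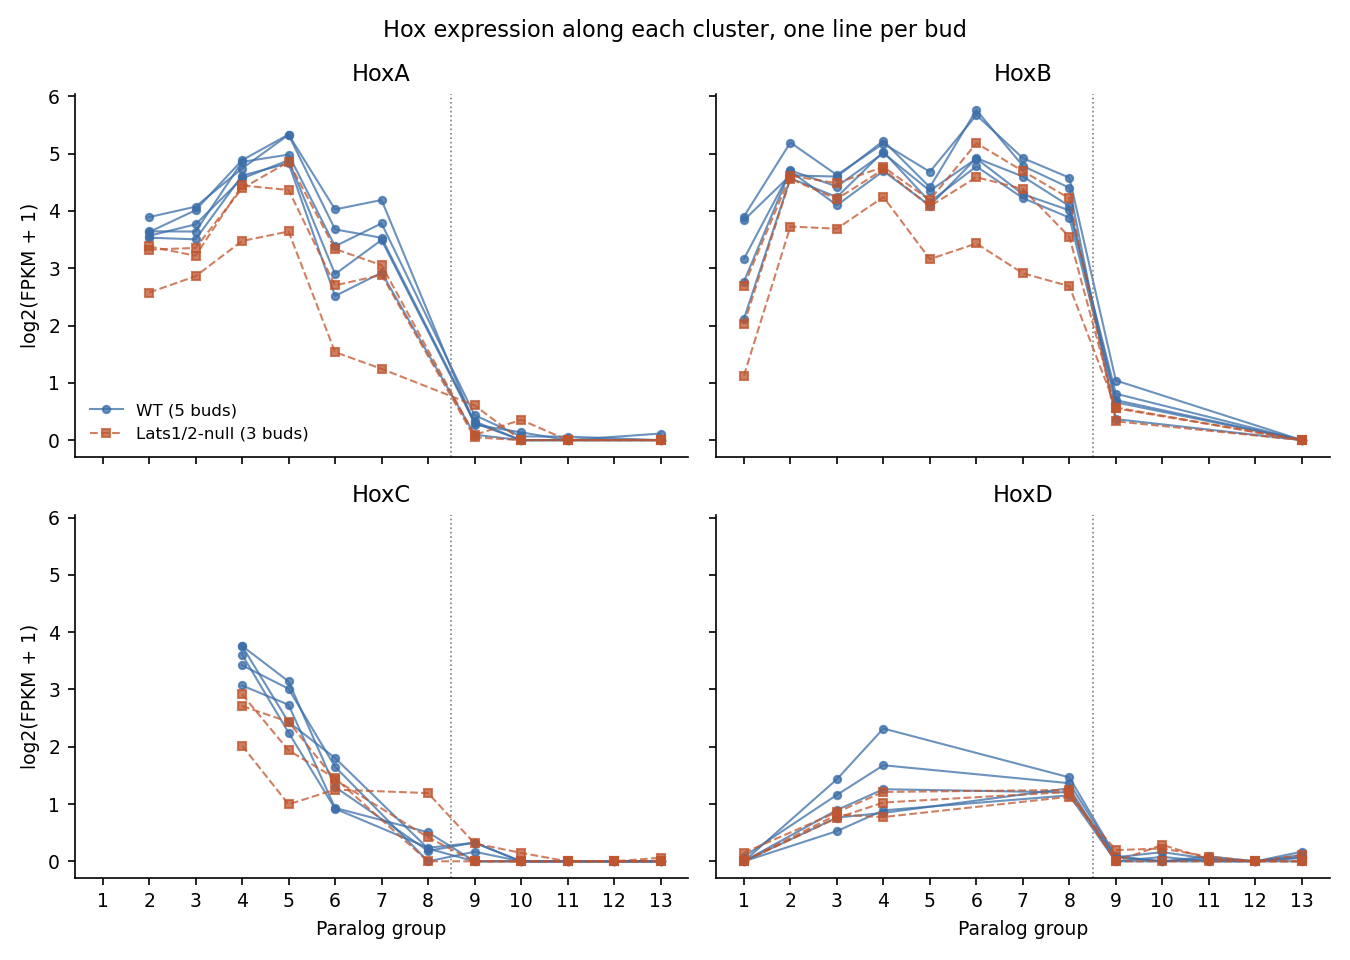
log2(FPKM + 1) against paralog group in each cluster, with a line for each of 5 WT buds (blue, solid) and 3 Lats1/2-null buds (orange, dashed); the dotted line separates groups 8 and 9. All 8 lines in HoxA, HoxB and HoxD drop at group 9, to 1.06 FPKM or less, and up to group 8 the lowest dashed line in HoxA and HoxB is null 3.

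Beyond the boundary the genes were at or near 0. Hoxb13, Hoxc11, Hoxc12 and Hoxd12 were listed at 0 in all 8 buds, and Hoxa11, Hoxa13, Hoxc10 and Hoxc13 were above 0 in 1 bud each. Some values above 0 fell on steps, as single fragments would give. Hoxd11 was listed at 0 in 3 buds, near 0.03 FPKM in 3 (0.0298, 0.0310 and 0.0289 FPKM) and near 0.06 FPKM in 2 (0.0613 and 0.0590 FPKM). With no counts in the table, no interval or detection limit can be given for these values. Members just inside and just outside the limit for testing, a mean of 0.5 FPKM over the 8 buds, were Hoxb9 at 0.564 FPKM and Hoxc8 at 0.315 FPKM. In all, 22 members passed this limit, 21 of the 23 in groups 1 to 8 (all but Hoxc8 and Hoxd1) and 1 of the 16 beyond.

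The spread between WT buds was wider for the Hox genes than for the median gene. The coefficient of variation over the 5 WT buds had a median of 21.7% over the 22 tested members, from 10.1% for Hoxa4 to 71.7% for Hoxd4, against 13.4% over all 13777 tested genes. Between 5 and 50 FPKM it was 20.1% for 16 members against 10.7% for 7585 genes. The differences followed whole buds: each of the 22 members had its highest WT value in WT 3 (13 members) or WT 5 (9 members), and 13 had their lowest in WT 2. Those WT 3 and WT 5 values were also the highest of all 8 buds. Of all tested genes, 11.5% were highest of the 8 in WT 3 and 22.4% in WT 5. WT 5 was also the lowest of the 8 in 19.7% of all tested genes. Hoxb1 was at 5.79, 3.33, 13.95, 7.95 and 13.3 FPKM, and Hoxa6 at 6.45, 4.72, 15.3, 9.44 and 11.8 FPKM. Barx1, a transcription factor of foregut mesenchyme, was at 234, 173, 500, 359 and 406 FPKM in the same buds, and Six2, a homeobox gene of gut and kidney mesenchyme, at 8.20, 8.32, 35.6, 20.9 and 41.3 FPKM. Both genes were picked out after their values had been seen, and their part in the spread of the Hox genes was not tested.

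Mesenchyme RNA was abundant in these buds although mesenchyme had been pulled off. The 17 mesenchyme markers summed to between 1187 and 1363 FPKM in WT buds and 949 to 1216 FPKM in Lats1/2-null buds, led by the intermediate filament gene Vim, Barx1 and the collagen gene Col3a1, and none was listed at 0 in all buds. The tissue's own markers were present, with the pancreas factor Pdx1 at 21.3, 21.8, 19.0, 17.96 and 9.96 FPKM in WT buds and 24.3, 15.3 and 48.5 FPKM in Lats1/2-null buds. Which cells of the bud the Hox transcripts came from cannot be told from bulk RNA, where fewer cells of a type and less RNA per cell also cannot be told apart. Of markers of other Hox-expressing tissues, the neural tube genes Neurog2 and Sox1 were listed at 0 in all buds and in 5 buds, respectively, the 6 neural tube markers summing to 7.41 to 17.9 FPKM mostly through Pax6 and Nkx6-2, which pancreatic cells also use. The 6 nephric and gonadal markers summed to 10.7, 10.7, 38.4, 23.7 and 43.5 FPKM in WT buds and 14.8, 23.2 and 11.7 FPKM in Lats1/2-null buds, so that WT 3 and WT 5 were highest, as they were for the summed Hox level. Most of this was Six2, a gene of nephron progenitors, at 8.20 to 41.3 FPKM over the 8 buds, whereas Pax2 and Pax8 were at or below 0.243 FPKM. The part of such tissue in the Hox levels was not tested. The 6 paraxial mesoderm markers summed to 2.17 to 5.28 FPKM. Nerve and neural crest markers summed to 25.3 to 31.4 FPKM in WT and 29.1 to 57.7 FPKM in Lats1/2-null buds, and endothelium markers to 107 to 166 FPKM and 73.2 to 116 FPKM. As a check of the labels, Lats1 was at 16.6, 15.8, 15.7, 14.1 and 15.6 FPKM in WT buds and 12.3, 13.8 and 10.1 FPKM in Lats1/2-null buds, with no overlap (exact permutation test, two-sided, p = 0.0357), and Lats2 overlapped between 11.6 to 14.7 FPKM in WT and 11.1 to 13.4 FPKM in Lats1/2-null buds (exact permutation test, p = 0.143). Between 16117 and 16982 genes were above 0 per bud; read counts are not in the table, and a fragment was worth 1.28 times as much FPKM in WT 5 as in WT 1, against 0.973 to 1.04 times in the others.

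The second question was whether the code differs when Lats1/2 are deleted from pancreatic progenitors. In HoxA, HoxB and HoxD the boundary was at the same place in Lats1/2-null buds. In HoxC, Hoxc8 was at 1.28 FPKM in null 3, beside 1.38 FPKM for Hoxc6. The weighted mean paralog number of HoxC was 4.60, 4.76 and 5.52 in null 1 to 3, against 4.46 to 4.64 in WT. Most Hox genes up to group 8 had lower means in Lats1/2-null buds, but 0 of the 22 tested members passed an adjusted p of 0.05 (limma over all 13777 genes, of which 0.0145% passed). The smallest adjusted p of a member was 0.190, for Hoxc4. At the unadjusted threshold of 0.05 in limma, 11 members passed with lower means in Lats1/2-null buds (background 4.99% of all tested genes) and 0 with higher means (background 6.29%). All 3 Lats1/2-null buds lay below the WT range for 4 members (background 3.06%), Hoxa2, Hoxa3, Hoxa4 and Hoxc4, and above it for 0 (background 4.46%). Over the 22 members the log2 fold change had a median of -0.56, against -0.01 over all genes tested, and 21 of them had a lower mean, as had 53.1% of all tested genes. Hoxc6 was the exception. Across the boundary, the ratio of Hoxb8 to Hoxb9 was 22.7, 68.9 and 11.2 in null 1 to 3, and that of Hoxa7 to Hoxa9 was 186, 114 and 2.62. These ratios rest on low values. Hoxb9 was at 0.470, 0.256 and 0.484 FPKM in null 1 to 3. Hoxa9, which was not tested, was at 0.0344, 0.0641 and 0.522 FPKM. The ratio of 2.62 in null 3 sets 1.37 FPKM for Hoxa7 against 0.522 FPKM for Hoxa9.

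Hoxc4 had the smallest p of the members. It was at 6.54, 5.55 and 3.05 FPKM in Lats1/2-null buds, all below the lowest WT bud (7.39 FPKM), and its log2 fold change was -0.98 (standard error 0.23; exact permutation test, two-sided, p = 0.0357, the smallest that 5 against 3 buds can give by this test). Hoxc5, its neighbour, was at 2.83, 4.40 and 0.993 FPKM, overlapping WT, with a log2 fold change of -0.92 (standard error 0.32). Hoxc6 was at 1.73, 1.68 and 1.38 FPKM, inside the WT range, with a log2 fold change of 0.05 (standard error 0.23), and was slightly lower instead under 3 alternative settings. The mean of Hoxc4 and Hoxc5 was thus 0.473 and 0.478 of the WT mean, respectively, while that of Hoxc6 was 1.01 of it. Hoxc5 spans Hoxc6 in GENCODE M21, and how fragments were divided between these 2 genes could not be checked.

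From HoxA, 5 genes were among the 11. Hoxa2 was at 9.42, 9.02 and 4.96 FPKM in Lats1/2-null buds, against a lowest WT value of 10.6 FPKM, and its log2 fold change was -0.56 (standard error 0.18). Hoxa3 was at 8.31, 9.23 and 6.26 FPKM, against a lowest WT value of 10.3 FPKM, with a log2 fold change of -0.66 (standard error 0.16). Hoxa4 was at 20.8, 19.99 and 10.1 FPKM, against a lowest WT value of 22.7 FPKM, with a log2 fold change of -0.63 (standard error 0.21). In these 3 genes the groups did not overlap (exact permutation test, p = 0.0357 for each), but 2 of the 3 Lats1/2-null buds lay close under the WT range. Hoxa5, at 19.6, 28.0 and 11.5 FPKM, had a log2 fold change of -0.78 (standard error 0.25) and overlapped WT through null 2. Hoxa7, at 6.38, 7.30 and 1.37 FPKM, had one of -1.19 (standard error 0.42) and also overlapped through null 2. Hoxa6 had a lower mean that missed this threshold, with a log2 fold change of -0.78.

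From HoxB, Hoxb1, Hoxb4, Hoxb5 and Hoxb8 were among the 11, and in each the groups overlapped. Hoxb1 was at 3.06, 5.47 and 1.18 FPKM in Lats1/2-null buds and had the largest log2 fold change of the tested members in absolute size, -1.21 (standard error 0.46), beside a WT range of 3.33 to 13.95 FPKM. Hoxb4 was at 25.5, 26.3 and 17.9 FPKM, with a log2 fold change of -0.45 (standard error 0.15). Hoxb5 was at 15.9, 17.3 and 7.93 FPKM (log2 fold change -0.53), and Hoxb8 at 10.7, 17.6 and 5.44 FPKM (log2 fold change -0.71). Hoxb6, the gene of highest WT mean, was at 23.1, 35.3 and 9.79 FPKM, with a log2 fold change of -0.81 (standard error 0.38) and missed the threshold, and Hoxb2, Hoxb3, Hoxb7 and Hoxb9 had log2 fold changes between -0.57 and -0.23. No HoxD member was among the 11: Hoxd8 was at 1.32, 1.37 and 1.18 FPKM in Lats1/2-null buds, and the log2 fold changes of Hoxd3, Hoxd4 and Hoxd8 were -0.15, -0.39 and -0.10. By cluster, the median log2 fold change was -0.66 in HoxA, -0.53 in HoxB, -0.92 in HoxC (3 genes) and -0.15 in HoxD (3 genes). It was -0.46 over the 11 tested genes of groups 1 to 4 and -0.74 over the 10 of groups 5 to 8.

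**Figure D3:**
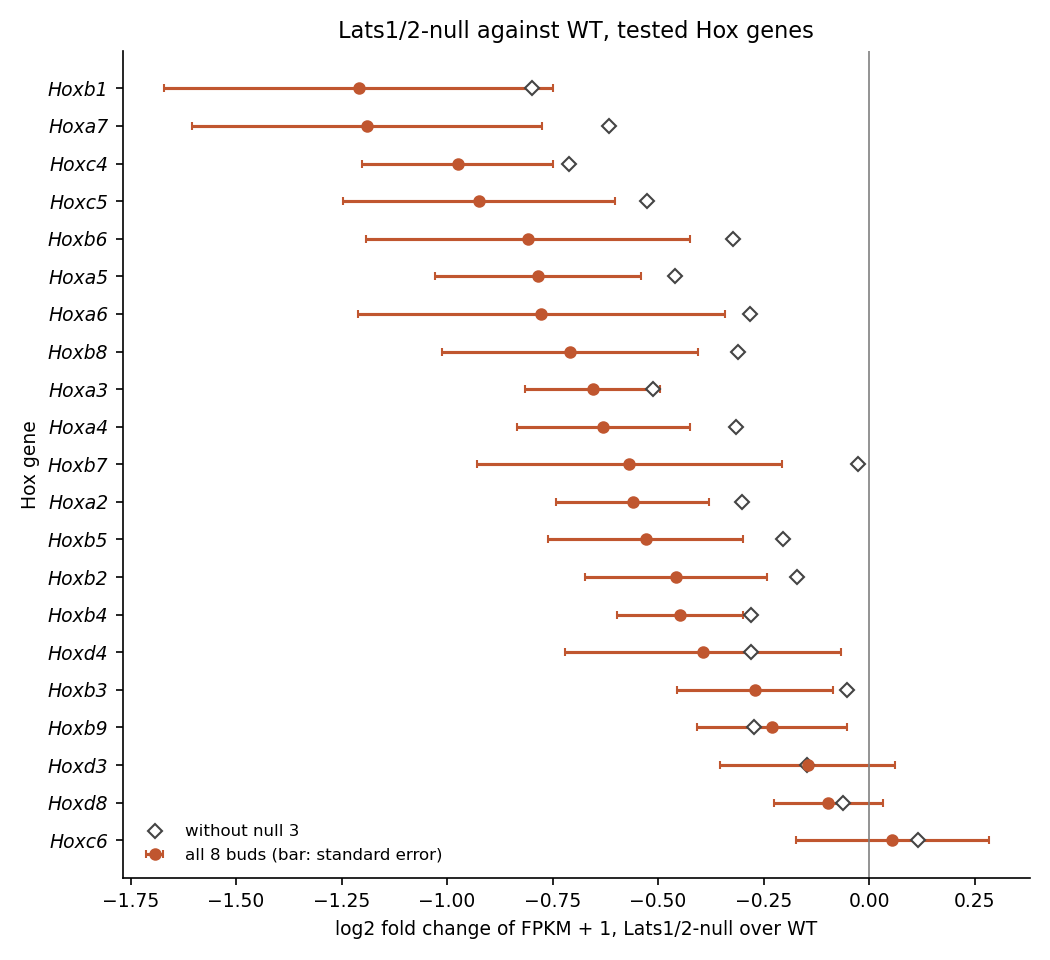
log2 fold change of FPKM + 1, Lats1/2-null over WT, of 21 tested Hox genes, with its standard error from limma (filled, 8 buds) and without null 3 (open). Filled points run from -1.21 (Hoxb1) to 0.05 (Hoxc6), and their median is -0.57, or -0.28 without null 3.

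A single bud carried much of this. Null 3 was the lowest of all 8 buds in 19 of the 22 tested members, against 20.6% of all tested genes. Its summed Hox FPKM was 122, against 225 in null 1 and 273 in null 2, and the WT range was 256 to 394. Without null 3, the median log2 fold change of the members was -0.28 and 5 of them (Hoxc4, Hoxa3, Hoxa4, Hoxa2 and Hoxa5) passed the unadjusted threshold with lower means, against 2.19% of all genes. The 4 members whose groups did not overlap lie below the WT range in null 1 and null 2 by definition. No other member joined them in these 7 buds, where 4.74% of all genes lay below it. In this fit 21 of 22 members had a lower mean, and the median log2 fold change over all genes was -0.01. Hoxb7 shows the dependence most plainly, with 19.9, 24.9 and 6.53 FPKM against 17.7 to 29.3 FPKM in WT and a log2 fold change of -0.57 that became -0.03.

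**Figure D4:**
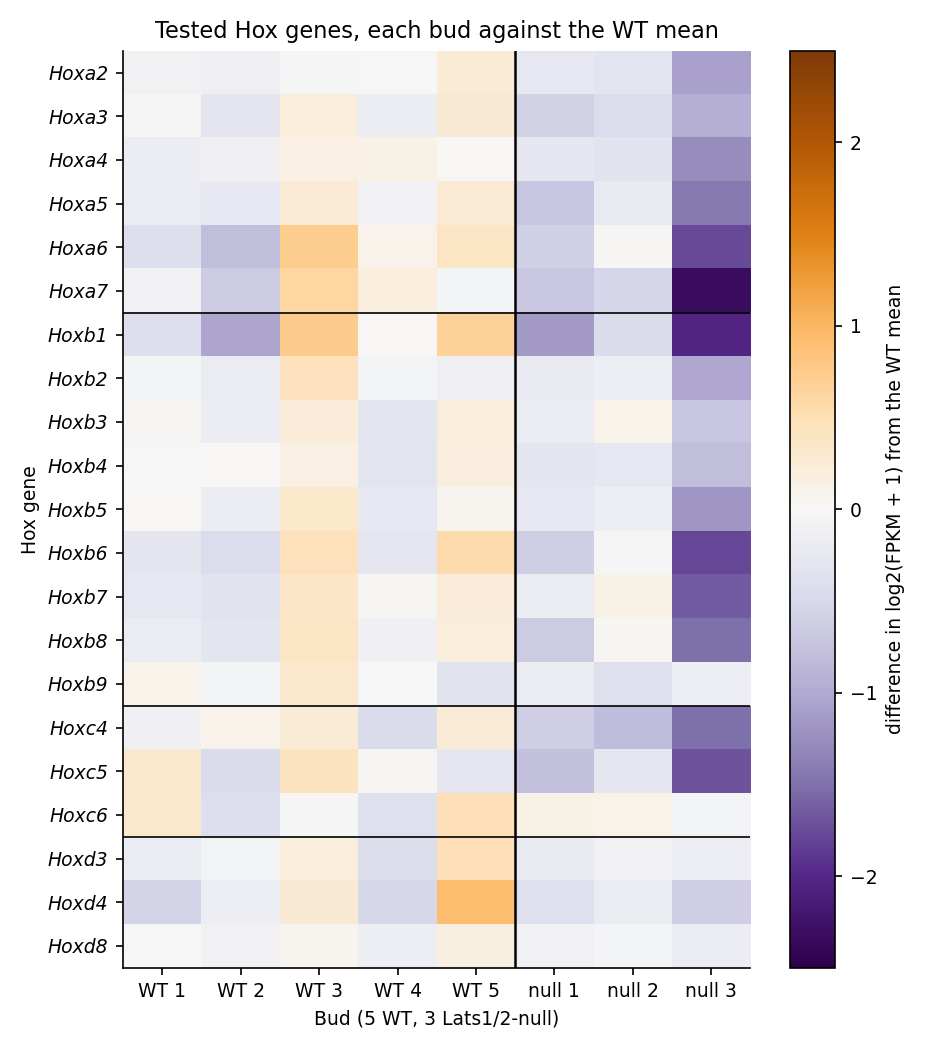
Difference of each bud from the WT mean in log2(FPKM + 1), for 21 tested Hox genes (rows, by cluster) in 5 WT and 3 Lats1/2-null buds (columns). Null 3 is the lowest of the 8 buds in 18 rows, and WT 3 or WT 5 is the highest in all 21.

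The mean share of each cluster in Lats1/2-null buds was within 3 percentage points of that in WT buds. HoxB held 61.7%, 63.0% and 60.4% of the summed Hox FPKM in Lats1/2-null buds 1 to 3, above the highest WT share of 60.1%, and HoxA 31.95%, 31.1% and 31.3%, below the lowest WT share of 32.9%. These differences of a few percentage points were not tested. The weighted mean paralog number was 4.55, 4.74 and 4.41, which spans the WT range of 4.55 to 4.69 on both sides. Groups 9 to 13 held 0.244%, 0.340% and 1.42% of the sum in null 1 to 3. Their summed level in null 3 was 1.73 FPKM, inside the WT range of 0.659 to 1.82 FPKM, so there the share was higher but the level was not. Hoxc8, of group 8, was at 1.28 FPKM in null 3 against 0.421 FPKM at most in WT.

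Markers of epithelium and mesenchyme also differed between the buds. The 12 epithelium markers summed to 197 to 260 FPKM in WT and to 470, 412 and 1004 FPKM in null 1 to 3. Of these 12, 11 passed the unadjusted threshold with higher means in Lats1/2-null buds (background 6.29% of all tested genes). The mesenchyme markers summed to 1054, 1216 and 949 FPKM, against 1187 to 1363 FPKM in WT, and of the 15 tested ones 13 had a lower mean, with a median log2 value of -0.39 (-0.16 without null 3). At the unadjusted threshold, 5 of the 15 passed with lower means (background 4.99%) and 1 with a higher mean (background 6.29%). Vim, the marker of highest level, went the other way, at 361 to 481 FPKM in WT and 493, 464 and 602 FPKM in null 1 to 3. Without Vim, a choice made after its values were seen, the other 16 markers summed to 705 to 944 FPKM in WT and 561, 751 and 347 FPKM in null 1 to 3. Summed Hox FPKM over summed mesenchyme markers was 21.6% to 30.2% in WT buds and 21.3%, 22.4% and 12.8% in null 1 to 3. Over the markers without Vim it was 34.0% to 41.7% in WT and 40.0%, 36.3% and 35.0% in null 1 to 3, all within the WT range. The lower ratio of null 3 was thus seen only with Vim in the sum. Barx1, picked out above after its values were seen beside those of Hox genes, is among these 16 markers. This ratio is therefore no independent measure of mesenchyme content. The part of cell makeup in the lower Hox means was not tested, and null 3 had the lowest mesenchyme sum, with or without Vim, and the highest epithelium sum of the 8 buds.

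**Figure D5:**
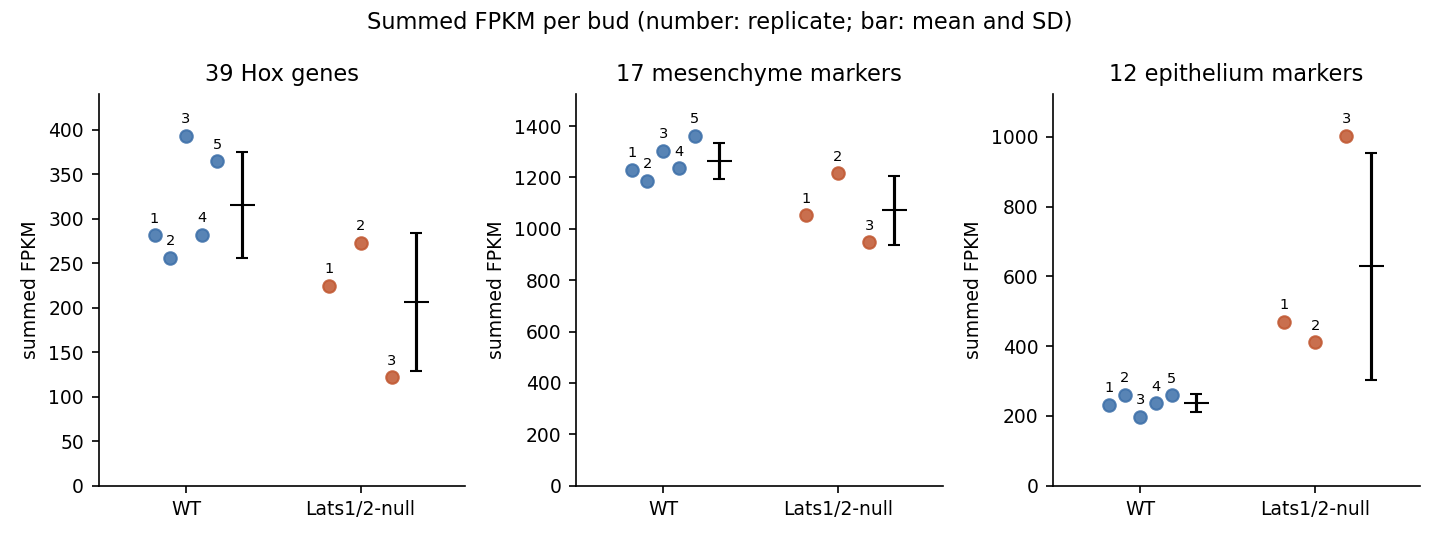
Summed FPKM per bud of 39 Hox genes (left), 17 mesenchyme markers (middle, Vim included) and 12 epithelium markers (right), with the replicate number beside each point and the mean and SD of each genotype (5 WT, 3 Lats1/2-null). Null 3 has the lowest Hox sum (122 FPKM) and the highest epithelium sum (1004 FPKM).

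Of 72 tested genes for Hox cofactors, ParaHox proteins, retinoic acid and chromatin regulators, 4 passed the unadjusted threshold with lower and 2 with higher means in Lats1/2-null buds, or 5.56% and 2.78%, beside 4.99% and 6.29% of all tested genes. The 2 with higher means include Aldh1a1, whose WT values all lay under the limit for testing. Hox proteins bind DNA with TALE homeodomain partners of the PBX, MEIS and PREP families. All 11 TALE genes were tested, and all 11 had a lower mean in Lats1/2-null buds; the median was -0.25 on the log2 scale (-0.08 without null 3) and 0 past an adjusted p of 0.05. Meis1 was at 96.2, 91.6, 94.2, 84.7 and 110.5 FPKM in WT buds and 81.8, 83.0 and 64.7 FPKM in Lats1/2-null buds, with no overlap and a log2 fold change of -0.32 (standard error 0.11). Meis3 (-0.42) also passed the unadjusted threshold, with overlap, and the most abundant gene, Meis2 (105 ± 6.34 FPKM in WT, SD, n = 5), did not.

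Retinoic acid, made from vitamin A, switches on 3′ Hox genes through its nuclear receptors. Of 18 genes of its pathway 15 were tested, and 1 passed the unadjusted threshold with a lower mean and 2 with a higher one. Aldh1a2, the enzyme that makes retinoic acid in embryonic mesoderm, was at 25.1, 17.7, 15.8, 12.2 and 25.9 FPKM in WT buds and 5.91, 4.59 and 5.25 FPKM in Lats1/2-null buds. The groups were far apart and null 3 lay between the other 2 Lats1/2-null buds, and the log2 fold change was -1.66 (standard error 0.23; limma, adjusted p = 0.0631, from 0.0108 to 0.251 over 16 alternatives, the last with the replicate block; exact permutation test, p = 0.0357). Without null 3 it was also -1.66. Aldh1a1, another such enzyme, was at or below 0.46 FPKM in WT buds and at 0.584, 1.44 and 2.87 FPKM in Lats1/2-null buds. It passed the 0.5 FPKM limit for testing only through its Lats1/2-null values, and it was not tested without null 3. Its place among the genes with higher means was therefore partly set by that limit. The receptor gene Rarg had a log2 fold change of 0.41 with overlap. Cyp26b1, an enzyme that breaks retinoic acid down, was at 0.899, 0.838 and 0.355 FPKM, below the WT range of 0.963 to 6.57 FPKM, but missed the unadjusted threshold. Rara, the receptor gene of highest level, had a log2 fold change of -0.09.

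Polycomb complexes keep 5′ Hox genes silent and trithorax proteins keep Hox genes active. Of 26 Polycomb genes, all tested, only Jarid2 passed the unadjusted threshold, at 35.3, 37.9 and 29.7 FPKM in Lats1/2-null buds against 38.7 to 51.3 FPKM in WT (log2 fold change -0.33). The H3K27 methyltransferase gene Ezh2 was at 116 ± 7.78 FPKM in WT (SD, n = 5) and 107 ± 8.497 FPKM in Lats1/2-null buds (SD, n = 3). Of 19 trithorax and elongation genes, 0 passed it, and the log2 fold changes had a median of -0.03. The ParaHox genes, which form a sister set of the Hox clusters, were at or near 0 apart from Pdx1: Gsx2 was listed at 0 in all buds and Cdx2, of the intestine, was at or below 0.468 FPKM. Evx1 and Evx2, which flank HoxA and HoxD at their 5′ ends, were at or below 0.151 FPKM.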

How the data were processed

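RNA of 8 single mouse pancreas buds, 5 WT and 3 Lats1/2-null, was examined, with genotype and replicate number taken from the labels. The authors trimmed reads with cutadapt 1.12, aligned them to GRCm38/mm10 with TopHat 2.1.0 and computed FPKM with Cufflinks and Cuffdiff 2.2.1; the methods state quantile normalization, but the deposited FPKM columns do not share 1 distribution, and they were used as deposited. Pairing by replicate number was not assumed, since deviations of same-numbered buds correlated at 0.0855, -0.0969 and 0.0685 across genes.

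A mean of 0.5 FPKM or more over the 8 buds was required for testing (13777 of 24341 genes). Genotypes were compared in limma 3.58.1 (R 4.3.3) on the log2(FPKM + 1) scale, allowing for a trend of variance with level, and p-values were adjusted by Benjamini-Hochberg. The added 1 FPKM understates fold changes of low genes. Two-sided exact permutation tests (scipy 1.17.1) used all 56 assignments of 5 and 3 buds. The limma script was tested on simulated data. The members, the marker and pathway lists and the tests were chosen with earlier results of these data known. Values per bud are given for members past the unadjusted threshold of 0.05 or without overlap, the 3 of highest WT mean in each cluster, those at each cluster's edge and those next to the 0.5 FPKM limit. Of other lists, the 2 of highest level and the 3 of smallest p were eligible. Positions are from GENCODE M21 and promoters from RefSeq, both GRCm38. Alternatives were array weights, no trend, median-ratio scaling, quantile normalization, a pseudocount of 0.1 FPKM, no filter on low values or a limit of 2 FPKM, a replicate block, and fits without each bud in turn. Figures were drawn with matplotlib 3.10.9. A member and another listed gene are counted but not reported here.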

Additional observations from a re-analysis of the deposited data

Results flagged for a closer look

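Of 55 sets of 5 WT values examined, 5 had a bud whose gap to the nearest other bud was over 0.71 of the range. Chance flags about 1 in 20 such sets. Hoxa2 was highest in WT 5 (13.8 FPKM), Hoxb2 was highest in WT 3 (35.6 FPKM), and the HoxA share of the summed Hox FPKM was highest in WT 4 (37.6%). WT 5 also had the lowest share of paralog groups 9 to 13 (0.181%) and the highest ratio of Hoxb8 to Hoxb9 (69.7). These 2 values of WT 5 both rest on Hoxb9, which was at 0.290 FPKM there.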

How the results depend on the processing

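Read counts are not in the table, so counting error of the low members is not given, and 3 Lats1/2-null buds limit every test; 0 members passed an adjusted p of 0.05 under any of the 16 alternatives. The number of members past the unadjusted threshold of 0.05 was 11, and 3 (Hoxc4, Hoxb4 and Hoxa3) with the replicate block; as each bud was left out it ran from 5 (without null 3) to 16 (without null 2). All of these had lower means. Of all tested genes, 4.99% passed with lower means in the main fit and 4.37% with the replicate block. That share was 2.19% without null 3 and 6.44% without null 2. The number of members with no overlap ran from 4 to 12 as each bud was left out, with 8 without WT 2 and 12 without null 2. The share of all genes below the WT range was 3.06% with all buds and 4.74% without null 3. It is not given for the other fits, so the counts of 8 and 12 cannot be set against it. Fewer buds in a group make such separation easier. Of the 440 single-gene values recomputed for 28 genes, 437 kept their direction; Hoxc6 (0.05) turned to -0.00039 under quantile normalization and ran from -0.045 (without WT 2; -0.042 without WT 4) to 0.18 (without WT 5) as each bud was left out. The median log2 fold change of the tested members was -0.24 with no filter, where more members at or near 0 enter, and from -0.74 to -0.28 as each bud was left out. Among cofactor and regulator genes, 6 passed the unadjusted threshold in either direction, with 14 under array weights and from 2 (without null 3) to 16 (without null 2) as each bud was left out. The share of all genes passing with lower means moved too. It was 9.44% under array weights, 2.19% without null 3 and 6.44% without null 2, against 4.99% in the main fit. The share with higher means is not given for these fits. Summing log2(FPKM + 1) in place of FPKM gave cluster shares of 48.9% (WT) and 49.9% (Lats1/2-null) for HoxB, 34.2% (Lats1/2-null) for HoxA, 10.7% and 10.4% for HoxC and 5.16% and 5.46% for HoxD. The replicate block moved no other count by over 1.5 times, and the numbers did not pair the buds.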
